A study of Mus musculus with 19 samples.

Results

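The genes that encode the TEAD transcription factors and their Vestigial-like (VGLL) cofactors were examined for binding of TEAD and YAP in mouse liver. The set held 7 genes, Tead1, Tead2, Tead3, Tead4, Vgll2, Vgll3 and Vgll4, of 22350 protein-coding genes on the numbered chromosomes and X. It was defined by gene family, and it was chosen with earlier results of these data known. A locus was the gene body with 20 kb on either side in the GENCODE annotation of NCBIM37 (mm9), and every peak that overlapped it was counted. The 7 loci covered 783.8 kb.

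Livers of C57BL/6 mice were analysed by ChIP-seq, the sequencing of DNA that is precipitated together with a chromatin protein. All 19 samples carried ROSA26-rtTA-IRES-EGFP, which makes the doxycycline-responsive activator rtTA together with green fluorescent protein, and all animals received doxycycline food. WT livers carried no YAP transgene and received this food for 7 days, whereas induced livers also carried tetYAP, an activated YAP allele under the control of rtTA, and received it for 3 days (3 d) or 7 days (7 d). According to the study's methods the mice were crossed with Alb-Cre mice, in which the albumin promoter directs Cre, and thereby rtTA, to hepatocytes. The methods name dissected livers as the fixed material for TEAD and speak of fixed cells for YAP. Fixation was with formaldehyde for TEAD, and with di-(N-succinimidyl)-glutarate and then formaldehyde for YAP. The labels give no age and do not say whether WT animals carried Alb-Cre. Both proteins were profiled in each of these conditions, with 3 replicates per group and 4 for TEAD at 7 d. The replicates of a group were merged before peaks were called, so each of the 6 groups is 1 peak list, no spread between replicates can be computed, and no difference below has a test. The TEAD antibody was raised against TEAD4, and the study's methods state that it was reported to recognise TEAD1 and TEAD3 as well. A TEAD peak can therefore not be assigned to a single family member.

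TEAD proteins bind DNA at sites with the core letters GGAATG and have little activity of their own. They act through cofactors. YAP and its paralogue TAZ, which the Hippo kinases keep out of the nucleus, are the best known activating cofactors of TEAD. VGLL proteins bind the same face of TEAD as YAP, and VGLL4 is known as an antagonist that competes with YAP. A TEAD peak at one of these genes is thus a peak of the factor at a gene for itself or for its own cofactor.

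TEAD peaks were called at 3 of the 7 loci in WT livers (Tead1, Tead4 and Vgll4) and at 5 loci after induction, where Tead3 and Vgll3 were added. Tead2 and Vgll2 had no TEAD peak in any list. Over all protein-coding genes, 25.4%, 65.3% and 66.5% had a TEAD peak in such a window in the WT, 3 d and 7 d lists, so the number of loci with a peak was close to that of genes in general. The pattern of Tead3 and Vgll3, no TEAD peak in WT livers and at least 1 at 7 d, was found for 41.3% of all genes. YAP peaks were called at none of the loci in WT livers or at 3 d and at 3 loci at 7 d (Tead1, Tead4 and Vgll4), against 0.139%, 0.192% and 6.34% of all genes. The windows of these 3 loci are the longest of the set, at 267.5, 116.5 and 149.4 kb against a median of 55.4 kb over all genes. The shares over all genes were not matched for window length. The merged YAP libraries of WT livers, 3 d and 7 d held 54661175, 36221830 and 34260362 tags, and their lists held 156, 110 and 1478 peaks. The part of depth and calling in the YAP counts was not tested.

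In total, the loci held 10, 38 and 41 TEAD peaks in the WT, 3 d and 7 d lists. In the same order, Tead1 had 4, 11 and 14 TEAD peaks. Vgll4 had 5, 20 and 16. Tead4 had 1, 3 and 4, Tead3 had 0, 2 and 4, and Vgll3 had 0, 2 and 3. Relative to WT livers, the count at the loci was 3.8 times as high at 3 d and 4.1 times at 7 d, while the whole lists were 6.4 and 6.85 times as long. Depth and calling differed between the lists: the merged TEAD libraries held 35168765, 55032002 and 38523843 tags, and the caller extended tags to 400 bp in WT livers against 207 bp and 206 bp after induction. With only the 5695 peaks of highest pileup kept in each TEAD list, which is the length of the WT list, the loci held 10, 9 and 11 peaks. Whether the larger counts of the full lists reflect more binding at these genes or longer lists cannot be told apart from these files. The windows of Tead1 and Vgll4 are also long, at 267.5 kb and 149.4 kb against a median of 55.4 kb over all genes. Per 100 kb, the 7 loci together held 1.28, 4.85 and 5.23 TEAD peaks, against 0.417, 2.69 and 2.78 for all gene windows pooled.

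**Figure D1:**
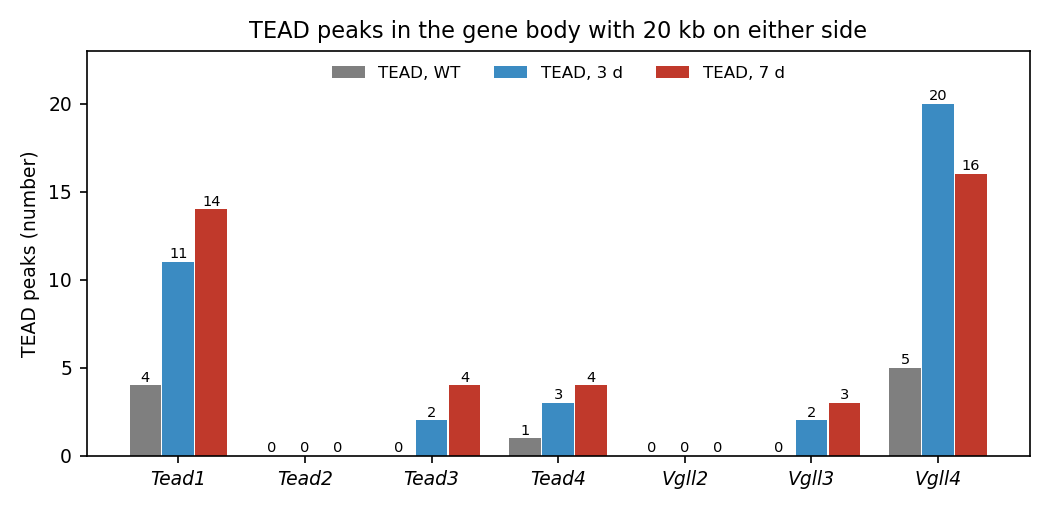
Number of TEAD peaks (vertical axis) in the gene body with 20 kb on either side for each of the 7 genes (horizontal axis), with 1 bar per TEAD peak list: WT, 3 d and 7 d. Each bar is the count from 1 merged list, so there are no error bars. Tead1 and Vgll4 held most peaks, up to 14 and 20, and Tead2 and Vgll2 had none.

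At promoters, defined as 2000 bp upstream to 1000 bp downstream of any annotated start, TEAD peaks were found at 3 members in WT livers and at 4 members at both 3 d and 7 d. Over all genes, 8.7%, 38.9% and 37.6% had such a peak. The 3 members with a promoter peak in WT livers were again Tead1, Tead4 and Vgll4, and Vgll3 was added after induction. No member had a YAP peak at a promoter at 7 d, when 1.04% of all genes had one. Most other peaks lay in introns: of the 41 TEAD peaks at 7 d, 28 had their summit in an intron of the member, 3 in an untranslated part of an exon, 8 upstream and 2 downstream, and none in a coding exon.

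Tead4 (chr6:128174306-128250841, minus strand) carried 1 of the highest TEAD peaks of the whole genome at its own start. In WT livers this was the only TEAD peak of the locus. Its summit lay 355 bp downstream of the gene start, and it had a pileup, the number of extended fragments over the summit, of 73, a fold enrichment over the control of 9.7 and rank 453 of 5695 by pileup. At 3 d the peak had a pileup of 195, a fold enrichment of 32.01 and rank 267 of 36446. At 7 d (chr6:128249992-128250915) it had a pileup of 233, a fold enrichment of 54.9 and rank 159 of 38984. Expressed as the share of peaks of the same list with a pileup at least as high, it moved from 7.95% in WT livers to 0.733% at 3 d and 0.408% at 7 d. Only 0.774% of all gene windows held a TEAD peak of such a rank at 7 d. Here and below, pileups and fold enrichments of WT livers are listed beside the induced ones, but they do not measure a change from WT. The longer fragment setting of the WT list changes pileup, on which fold enrichment rests, so no ratio to WT was formed. Both induced lists used nearly the same setting. Divided by the number of tags in the library, the pileup at the Tead4 start was 1.71 times as high at 7 d as at 3 d, with a 95% interval from 1.41 to 2.08. This interval, like those of the other ratios, covers counting error of 2 merged libraries only. Over all 27753 TEAD peaks shared by both induced lists, the median of this ratio was 1.33, with quartiles of 1.10 and 1.62. An interval above 1, here or below, therefore does not set a peak apart from the list. The summit lies in an untranslated part of the first exons, next to a pair of TEAD core letters on the same strand. The 30 bases that hold this pair are shown because it is the closest match to any promoter summit of the members, with GGAATG in capitals, on the plus strand of mm9 (chr6:128250463-128250492):

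Tead4 start: aggagcccggcaGGAATGcacGGAATGggc

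A pair of this kind, with 3 bases between the matches on the same strand, was looked for after the sequence was seen. It was present within 100 bp of the summit in 0.239% of all TEAD peaks at 7 d, and in 1 of the 41 peaks at the loci.

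The other TEAD peaks of Tead4 were absent from the WT list. A peak with its summit 1289 bp upstream of the start (chr6:128251917-128252365) was called at 7 d alone, with a pileup of 96 and a fold enrichment of 18.2. A weak intronic peak, 23.1 kb into the gene, had pileups of 26 at 3 d and 24 at 7 d. The remaining peak lay in an intron close to the 3′ end of the gene, 75.6 kb from the start. Its pileup was 66 at 3 d and 83 at 7 d (chr6:128175014-128176257), and its fold enrichment was 10.8 and 19.6. Here, and not at the promoter, lay the YAP peak of Tead4 at 7 d (chr6:128175202-128175603), with a pileup of 31, a fold enrichment of 6.77 and rank 520 of 1478. The TEAD peak of highest pileup, at the start, had no YAP peak. Among all TEAD peaks at 7 d in the top 1% by pileup, a YAP peak was present at 53 of 79 promoter peaks (67.1%) and at 235 of 310 others (75.8%), and the start of Tead4 was among the 26 such promoter peaks without a YAP call.

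Tead1 (chr7:119822832-120050319, plus strand), the longest of the 7 genes, had 4 TEAD sites that were present in all 3 TEAD lists. These lay 15.9 kb upstream of the gene, at the start, and in introns 109 kb and 147 kb from the start. The upstream site and the start also lie inside 2310014F06Rik, a long non-coding RNA gene annotated on the opposite strand. In the order of these sites, the pileups were 43, 34, 43 and 41 in WT livers, 47, 89, 101 and 53 at 3 d, and 60, 81, 114 and 36 at 7 d. The 4 pileups in WT livers lay close together, between 34 and 43, with the start the lowest, and this order was not tested. After induction the start was the second highest, behind the intronic site at 109 kb. The peak at the start had its summit 37 bp upstream of the gene start in WT livers, 55 bp at 3 d and 27 bp at 7 d (chr7:119822517-119822972). Its fold enrichment was 4.52, 14.6 and 19.1, and its share of the list 72.0%, 7.36% and 11.4%. Between 3 d and 7 d its pileup per tag differed by a ratio of 1.30 (0.95 to 1.78), an interval that includes 1. Within 100 bp of the 7 d summit were 2 matches to the TEAD core, both inside the first exon, and they are shown as the reverse complement CATTCC in capitals (chr7:119822845-119822874, plus strand):

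Tead1 start: tggcgttcatttCATTCCtgtcctCATTCC

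The intronic site at 109 kb was the highest TEAD peak of Tead1 at 3 d and 7 d, and shared the highest pileup in WT livers with the upstream site. Its fold enrichment in the WT, 3 d and 7 d lists was 5.72, 14.6 and 23.5 (chr7:119931614-119932264), and its share of the list was 38.3%, 5.44% and 5.39%. The pileup per tag was 1.61 times as high at 7 d as at 3 d (1.22 to 2.13). The YAP peak of Tead1 was called at this site at 7 d (chr7:119931780-119932035), with a pileup of 25, a fold enrichment of 5.3 and rank 1041 of 1478. The YAP summit lay 2 bp from the TEAD summit. A peak just upstream of the start of a shorter Tead1 transcript, 79.4 kb into the gene, was absent in WT livers and had pileups of 29 at 3 d and 54 at 7 d. The other Tead1 peaks of the induced lists were intronic or near the start, and their pileups lay between 21 and 57.

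The 2 remaining TEAD genes had little or no TEAD signal in liver. Tead2 (chr7:52471123-52489005, plus strand), known mainly from embryonic and neural tissue, had no peak of either protein in any list, and the nearest TEAD peak at 7 d was 60.7 kb from the gene. Tead3 (chr17:28468616-28487750, minus strand), known for expression in placenta, had no TEAD peak in WT livers, and none of its induced peaks lay in the gene body. Of the 2 peaks at 3 d and the 4 at 7 d, 2 and 3 lay at promoters of neighbouring genes. The highest at 3 d (chr17:28464999-28465680, pileup 36, fold enrichment 5.91) covered the promoter of Rpl10a, a ribosomal protein gene. The highest at 7 d (chr17:28497533-28497897, pileup 40) lay 9988 bp upstream of Tead3 at the promoter of Tulp1. At 7 d the nearest peak to an annotated start of Tead3 was again that of Rpl10a, 6944 bp away (chr17:28465123-28465592, pileup 39). These peaks were called at Tead3 by the window alone.

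Vgll4 (chr6:114810646-114920012, minus strand), which encodes the VGLL protein that competes with YAP for TEAD, had the highest TEAD peak of the set in all 3 lists. It lay in an intron, 28.5 kb from the gene start, and a further high peak lay 80.9 kb from the start. The site at 28.5 kb had pileups of 106, 244 and 280 in the WT, 3 d and 7 d lists (chr6:114891082-114892024), a fold enrichment of 14.1, 39.8 and 64.8, and rank 149, 87 and 43. The site at 80.9 kb had a pileup of 90, 190 and 272, a fold enrichment of 9.99, 26.0 and 53.6, and rank 225, 292 and 54. Both were thus among the highest peaks of each list, and only 0.161% of all gene windows held a TEAD peak at 7 d that ranked as high as the first. Per tag, their pileups were 1.64 times (1.38 to 1.95) and 2.05 times (1.69 to 2.48) as high at 7 d as at 3 d.

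TEAD also occupied 2 start regions of Vgll4 in every list. At the first, the summit lay 967 bp downstream of the gene start and 153 bp from the nearest annotated start at 7 d (chr6:114918636-114919382). Its pileup was 76, 158 and 152, its fold enrichment 10.1, 25.9 and 35.8, and its share of the list 6.87%, 1.56% and 2.36%. The pileup per tag was 1.37 times as high at 7 d as at 3 d (1.09 to 1.73), close to the median of 1.33 over all shared peaks. At an internal start, 48.2 kb into the gene, the peak summit lay 16 bp from the annotated start in WT livers, 17 bp at 3 d and 37 bp at 7 d, with pileups of 49, 75 and 100. The peak closest to any Vgll4 start at 7 d was a weak one with its summit 18 bp upstream of the gene start (chr6:114919910-114920177, pileup 22), which had a counterpart of pileup 31 at 3 d and none in WT livers. The 30 bases around the TEAD core nearest the first start summit are shown (chr6:114919018-114919047, plus strand), with GGAATG in capitals:

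Vgll4 start: cgaggaatccctGGAATGaggcgcagccag

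Further into the gene, the Vgll4 site at 56.6 kb was also found in all 3 lists, with pileups of 37, 90 and 69. The other TEAD peaks of Vgll4, 15 at 3 d and 11 at 7 d, were absent in WT livers and had pileups between 22 and 97. The highest of these, 2642 bp from the gene start, had a pileup of 55 at 3 d and 97 at 7 d (chr6:114916972-114917705), a ratio per tag of 2.52 (1.79 to 3.57).

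Vgll3 (chr16:65815878-65863302, plus strand), a VGLL cofactor known from muscle and skin, had no TEAD peak in WT livers. A promoter peak with its summit 523 bp upstream of the start had a pileup of 45 and a fold enrichment of 7.39 at 3 d. At 7 d its summit lay 495 bp upstream (chr16:65815027-65815641), with a pileup of 86 and a fold enrichment of 20.3. Its share of the list was 30.7% at 3 d and 10.1% at 7 d. An intronic peak 12.7 kb from the start had pileups of 29 and 61, and another, 6453 bp from the start, was called at 7 d alone with a pileup of 45. Both peaks of Vgll3 that were shared by the induced lists had ratios of 7 d to 3 d at the upper end of the set, 2.73 (1.88 to 4.01) at the promoter and 3.01 (1.90 to 4.85) in the intron. All 3 peaks at 7 d held a TEAD core within 100 bp of the summit. The promoter window, 100 bases on either side of the summit, is shown because Vgll3 was the only member with a promoter peak in the induced lists and none in the WT list (chr16:65815283-65815483, plus strand, CATTCC in capitals):

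Vgll3 promoter: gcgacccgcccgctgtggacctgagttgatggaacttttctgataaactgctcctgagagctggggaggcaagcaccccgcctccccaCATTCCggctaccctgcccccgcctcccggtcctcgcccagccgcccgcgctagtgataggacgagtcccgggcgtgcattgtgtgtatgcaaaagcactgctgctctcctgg

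Vgll2 (chr10:51742308-51748277, plus strand), a cofactor of skeletal muscle, had no peak of TEAD or YAP, and the nearest TEAD peak at 7 d lay 204 kb from the gene.

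**Figure D2:**
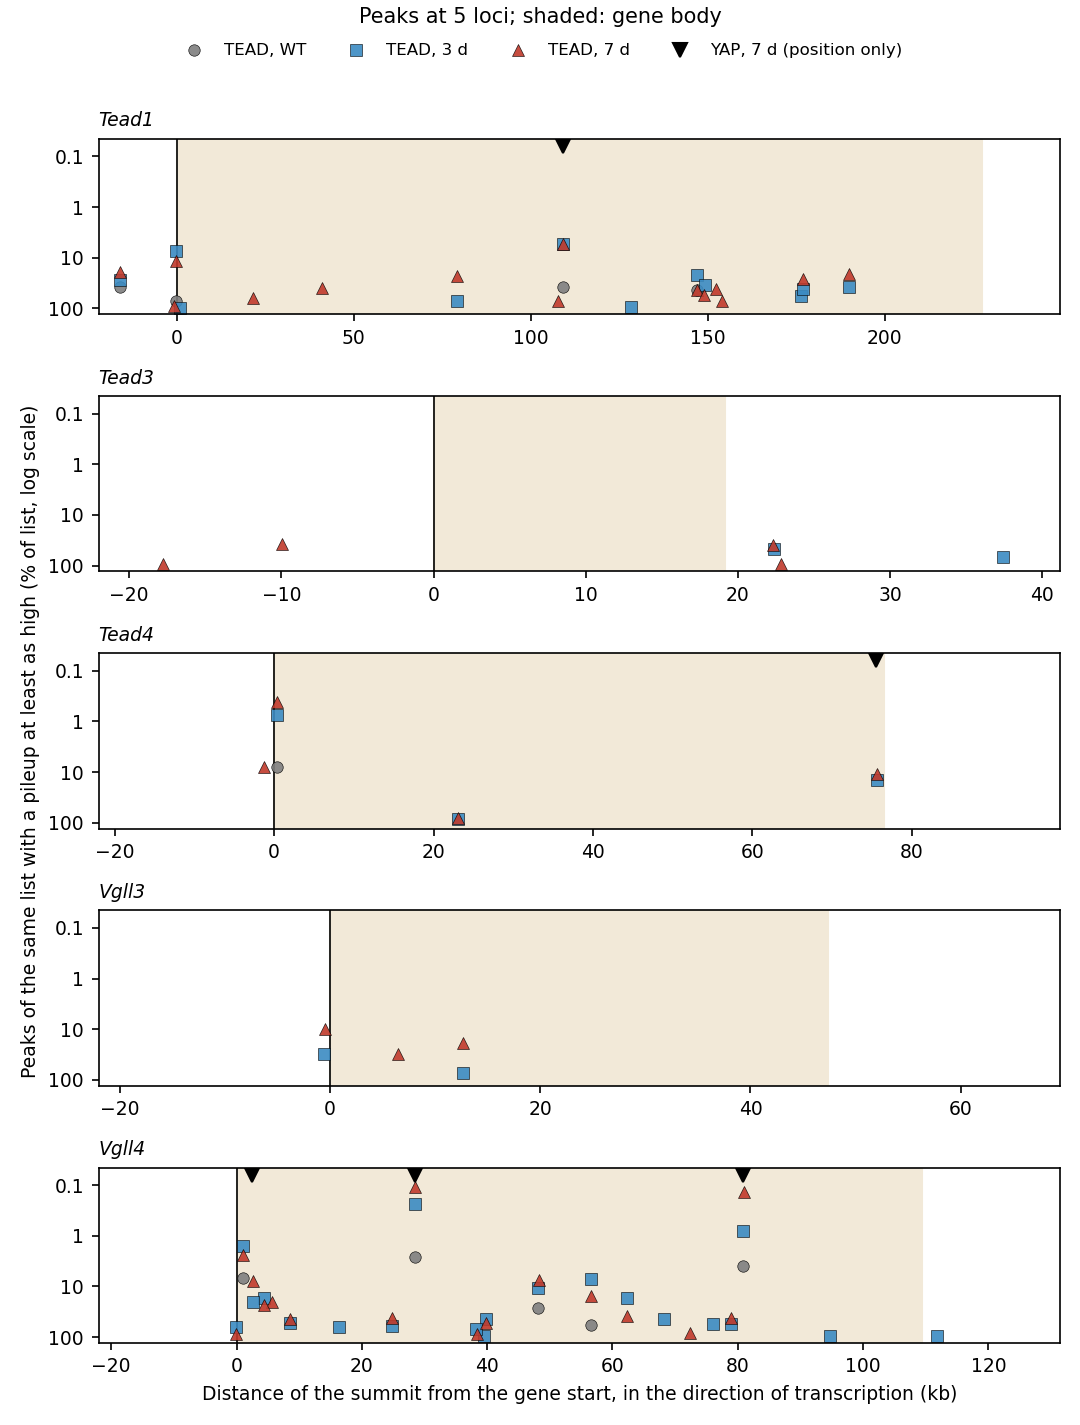
Peaks at the 5 loci with any peak. The horizontal axis is the distance of the summit from the gene start in kb, in the direction of transcription, and the shaded area is the gene body. The vertical axis, on a log scale, is the percentage of peaks of the same list with a pileup at least as high, so high peaks are at the top. Grey circles are TEAD peaks of WT livers, blue squares of 3 d and red triangles of 7 d, and black triangles at the upper edge mark the positions of YAP peaks at 7 d. The highest peaks are those of Vgll4 at 28.5 kb and 80.9 kb and of Tead4 at its start.

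The choice of 20 kb set which peaks were counted. At 7 d, the counted TEAD peak farthest from a gene body was 15.6 kb from Tead1, 17.7 kb from Tead3, 1.08 kb from Tead4 and 0.237 kb from Vgll3, while the nearest TEAD peaks left out were 22.4 kb from Tead1 and 23.3 kb from Tead4.

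YAP was compared with TEAD next. All 5 YAP peaks at the loci, at 7 d, overlapped a TEAD peak of 7 d, as did 95.2% of all YAP peaks at 7 d. All 5 also overlapped a TEAD peak at 3 d, when no YAP peak was called there, and 3 of 5 overlapped a TEAD peak of WT livers. Over all YAP peaks at 7 d, these overlaps were found for 89.6% and 54.8%, so the counts at the loci were close to those of the list. The YAP list of 3 d held 110 peaks in all, so few sites anywhere had a YAP peak at that time. The YAP peak at 80.9 kb of Vgll4 (chr6:114838951-114839381) had a pileup of 45, a fold enrichment of 8.2 and rank 136 of 1478. The one at 28.5 kb (chr6:114891305-114891808) had a pileup of 37, a fold enrichment of 8.02 and rank 269. The third YAP peak of Vgll4, 2481 bp from the gene start (chr6:114917338-114917589), had a pileup of 28, a fold enrichment of 5.3 and rank 742. Vgll4 was 1 of 41 genes (0.183%) with at least 3 YAP peaks in the window at 7 d. This share was not matched for length, and the Vgll4 window is long, at 149.4 kb against a median of 55.4 kb. Per 100 kb, Vgll4 held 2.01 YAP peaks at 7 d, against 0.104 for all gene windows pooled. The order of the 5 sites by YAP pileup was Vgll4 at 80.9 kb, Vgll4 at 28.5 kb, Tead4 near the 3′ end, Vgll4 near the start and Tead1. The order by TEAD pileup at 7 d had the Vgll4 intronic sites first as well, with 280 at 28.5 kb and 272 at 80.9 kb, followed by Tead1 with 114, Vgll4 near the start with 97 and Tead4 with 83.

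Conversely, 5 of the 41 TEAD peaks at 7 d overlapped a YAP peak (12.2%, 95% Wilson interval 5.32% to 25.5%), against 3.58% of all TEAD peaks at 7 d. Wilson intervals here cover counting error over peaks, which are not replicates. Summits of YAP and TEAD were 2, 62, 108, 156 and 161 bp apart at the 5 sites, against a median of 34 bp over the 1407 YAP peaks with a TEAD peak. At 3 of the 5 sites the distance exceeded 100 bp, which was the case for 13.4% of all such YAP peaks. Fixation and the fragment setting differed between the 2 proteins, and their part in these distances was not tested.

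The sequences of the 5 sites bound by both proteins are shown from 60 bases before the first summit to 60 bases after the last, on the plus strand of mm9, with GGAATG or its reverse complement CATTCC in capitals. They cover chr6:114839020-114839248 and chr6:114891430-114891612 for the Vgll4 intronic sites at 80.9 kb and 28.5 kb, chr6:114917310-114917591 for Vgll4 near the start, chr6:128175154-128175430 for Tead4 and chr7:119931840-119931962 for Tead1.

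Vgll4, 80.9 kb: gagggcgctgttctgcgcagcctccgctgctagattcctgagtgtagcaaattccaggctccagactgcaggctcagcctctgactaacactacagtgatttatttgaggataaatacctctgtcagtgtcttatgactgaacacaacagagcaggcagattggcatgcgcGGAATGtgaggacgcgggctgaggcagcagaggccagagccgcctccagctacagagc
Vgll4, 28.5 kb: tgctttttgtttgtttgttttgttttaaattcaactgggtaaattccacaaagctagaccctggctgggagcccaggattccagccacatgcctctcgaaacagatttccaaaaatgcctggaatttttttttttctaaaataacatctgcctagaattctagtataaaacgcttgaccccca
Vgll4, near start: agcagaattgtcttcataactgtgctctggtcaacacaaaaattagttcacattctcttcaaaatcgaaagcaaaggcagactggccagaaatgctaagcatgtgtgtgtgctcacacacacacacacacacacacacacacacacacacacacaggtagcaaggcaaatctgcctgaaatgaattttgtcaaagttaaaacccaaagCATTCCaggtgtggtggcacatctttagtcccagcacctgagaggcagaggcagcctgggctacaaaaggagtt
Tead4, near 3′ end: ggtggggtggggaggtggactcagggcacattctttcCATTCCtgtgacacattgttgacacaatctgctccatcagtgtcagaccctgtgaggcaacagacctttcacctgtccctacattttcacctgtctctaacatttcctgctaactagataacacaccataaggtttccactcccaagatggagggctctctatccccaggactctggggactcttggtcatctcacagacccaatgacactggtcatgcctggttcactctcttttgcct
Tead1, 109 kb: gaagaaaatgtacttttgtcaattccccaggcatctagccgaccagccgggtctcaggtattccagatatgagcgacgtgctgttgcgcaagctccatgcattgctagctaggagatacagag

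Of these sequences, which differ in length, 3 held the TEAD core. Within 100 bp of the YAP summit it was present at 2 of the 5 sites (40%), against 59.0% of all YAP peaks at 7 d. Within 100 bp of the TEAD summit it was also present at 2 of the 5, against 35.2% of all TEAD peaks at 7 d. Distances were measured to the middle of the match. In the 80.9 kb sequence of Vgll4 the core lay 5.5 bp from the YAP summit and over 100 bp from the TEAD summit. In the sequence near the Vgll4 start it lay 10.5 bp from the YAP summit and 80.5 bp from the TEAD summit. In Tead4 it lay 20.5 bp from the TEAD summit and over 100 bp from the YAP summit. The site with the highest TEAD pileup of the set, Vgll4 at 28.5 kb, held no such match, and neither did Tead1 at 109 kb.

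TEAD sites were then followed across the lists. Peaks of the TEAD and YAP lists that overlapped at the loci merged into 49 sites, each with at least 1 TEAD peak. Of these, 10 were present in all 3 conditions, 18 at 3 d and 7 d, 10 at 3 d alone and 11 at 7 d alone. All 10 TEAD peaks of WT livers overlapped a peak in both induced lists, as did 94.8% of all TEAD peaks of WT livers (98.4% for the 3 d list and 95.4% for the 7 d list). Of the 41 peaks at 7 d, 11 overlapped a WT peak (26.8%, 15.7% to 41.9%), against 14.1% of all TEAD peaks at 7 d. A further 19 overlapped a 3 d peak and no WT peak (46.3%, 32.1% to 61.3%), against 57.2% over the whole list, a value inside the interval. Sites present at 3 d alone were found at Tead1, Tead3 and Vgll4, with 3, 1 and 6 sites. Counted as peaks, 10 of 38 at 3 d (26.3%, 15% to 42%) overlapped no 7 d peak, against 24.1% of all TEAD peaks at 3 d. The 11 peaks at 7 d that overlapped a WT peak had a median fold enrichment of 19.7, and the other 30 had 8.70. The corresponding medians over the whole 7 d list were 16.7 and 6.83.

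By their place within the list, all 10 sites found in the 3 TEAD lists stood nearer the top at 3 d and at 7 d than in WT livers, and 6 of them stood nearer the top at 7 d than at 3 d. The Vgll4 site at 28.5 kb moved from 2.62% of the list in WT livers to 0.239% at 3 d and 0.110% at 7 d, and that at 80.9 kb from 3.95% to 0.801% and 0.139%. The Tead1 sites at 15.9 kb upstream and at 147 kb stood at 19.4% and 43.9% at 7 d, from 38.3% and 44.1% in WT livers. A list that is longer at its weak end moves any given peak towards the top by this measure.

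**Figure D3:**
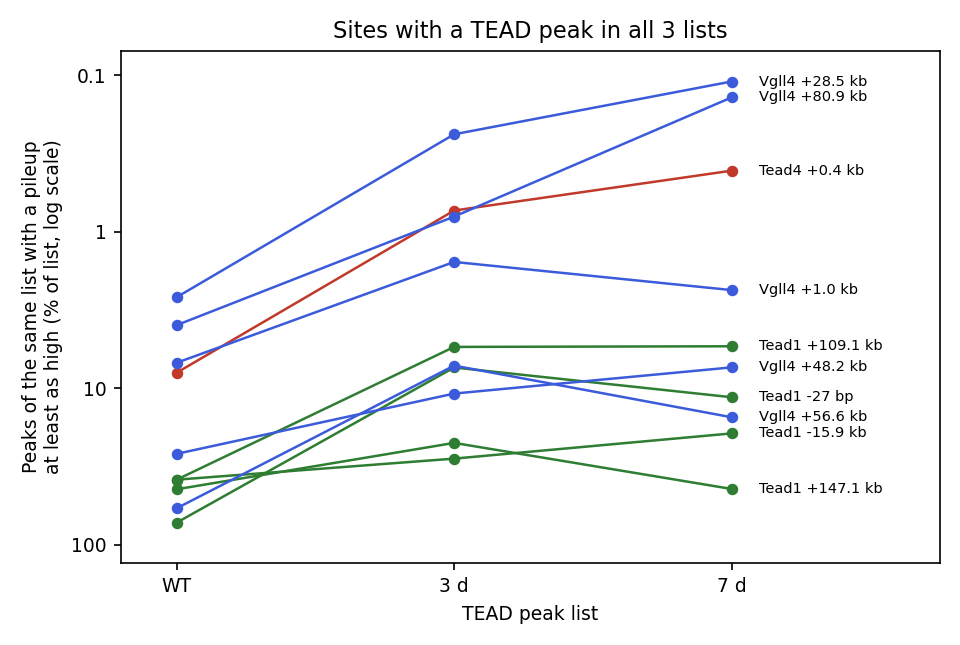
The 10 sites with a TEAD peak in all 3 conditions (1 line each, green for Tead1, red for Tead4, blue for Vgll4, labelled by distance of the 7 d summit from the gene start). The vertical axis, on a log scale, gives the percentage of peaks of the same list with a pileup at least as high. The Tead4 start and the Vgll4 sites at 28.5 kb and 80.9 kb stand within the top 1% of the list at 7 d.

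The induced lists, which share the fragment setting, allowed a comparison of heights. Over the 30 TEAD peaks at 7 d with a counterpart at 3 d, the median ratio of pileup per tag, 7 d to 3 d, was 1.58. Over all 27753 shared peaks it was 1.33, with quartiles of 1.10 and 1.62. Of the 30 peaks, 18 lay above the median of all shared peaks. A ratio of at least 1.5 was found at 17 of the 30, against 33.6% of all shared peaks. The counting interval lay above 1 at 15 peaks, included 1 at 14 and lay below 1 at 1. After division by the median pileup of all shared peaks in each list, the median ratio at the loci was 1.19. By gene, the median was 1.61 for Tead1 (9 peaks), 1.71 for Tead4 (3), 2.87 for Vgll3 (2) and 1.44 for Vgll4 (14). The 30 peaks rest on 28 peaks of the 3 d list, since a single 3 d peak was called as 2 peaks at 7 d at both Tead1 and Tead3. At Tead3 this gave ratios of 1.55 and 0.833 for the Rpl10a promoter peak and a smaller one beside it, both against the same 3 d peak of pileup 36. The lowest ratio, 0.337, belonged to a small peak 739 bp upstream of Tead1, which at 3 d was part of the wide peak at the start. With only the highest 7 d peak kept for each 3 d peak, the median over the loci was 1.61.

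**Figure D4:**
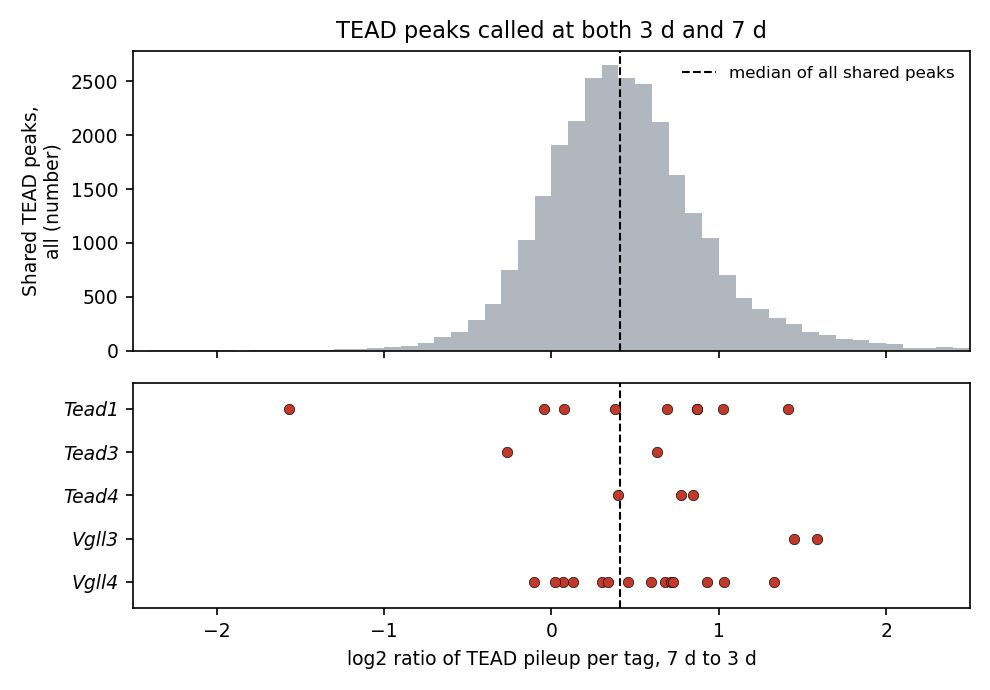
Ratio of TEAD pileup per tag, 7 d to 3 d, on a log2 scale (horizontal axis) for peaks called in both lists. The upper panel is a histogram of all 27753 shared peaks and the lower panel shows the 30 shared peaks at the loci by gene, each dot 1 peak. The dashed line is the median of all shared peaks, a ratio of 1.33, and 18 of the 30 peaks lie to its right.

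Sequence letters were searched on both strands within 100 bp of each summit: GGAATG for TEAD, TGANTCA for AP-1, a factor known to share enhancers with TEAD, and TGTTTAC for forkhead factors of liver. Matches to GGAATG and TGANTCA can share letters, but no pair did so at the loci. The TEAD core was present at 5 of the 10 TEAD peaks of the loci in the WT list (50%), at 15 of the 38 in the 3 d list (39.5%) and at 16 of the 41 in the 7 d list (39.0%). Over all peaks of these lists on sequences of the reference genome it was present at 48.6%, 30.4% and 35.2%, and each of these values lay inside the interval of the loci. The AP-1 letters were found at 0, 2 and 5 peaks of the loci, and the forkhead letters at 0, 2 and 1, against 7.04%, 6.92% and 8.71% of all peaks for AP-1 and 5.45%, 5.54% and 5.76% for forkhead. Of the 9 member promoter peaks at 7 d, 5 held the TEAD core, against 27.6% of the 10510 TEAD peaks at 7 d that overlapped a promoter of any protein-coding gene.

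The other genes of the pathway were counted in the same windows. All 18 genes of a Hippo list, from the kinases Stk3, Stk4, Lats1 and Lats2 to the angiomotins, were found in the annotation. TEAD peaks were called at 6, 18 and 16 of them in the WT, 3 d and 7 d lists, and 4 had a YAP peak at 7 d. Over all protein-coding genes these shares were 25.4%, 65.3% and 66.5% for TEAD and 6.34% for YAP. The 4 genes with YAP peaks were Amotl2, an angiomotin that holds YAP in the cytoplasm, with 5 YAP peaks and a best rank of 92, Ajuba, an inhibitor of LATS kinases, with 3 and 108, Wwc1 (KIBRA), an activator of LATS kinases, with 2 and 187, and Ptpn14, a phosphatase that binds YAP, with 1 and 1149. YAP lay at a promoter in Amotl2, Ajuba and Ptpn14. Of the coactivator genes, Wwtr1, which encodes TAZ, had 1 YAP peak at its promoter with rank 742, and Yap1 had none but had 5 TEAD peaks at 3 d and 7 at 7 d. Among 4 established targets, Ctgf had 1 YAP peak with rank 99, and TEAD peaks were called at 2 of the 4 in WT livers and at all 4 after induction.

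By the rank of their highest peak in each of the 6 lists, the genes most like Tead4 were Cldn12 and Gtpbp10, neighbours that share the same peaks, with ranks of 520 in the YAP list of 7 d and 453, 284 and 333 in the TEAD lists of WT livers, 3 d and 7 d, and Stradb with 520, 357, 236 and 390. Those most like Tead1, whose ranks were 1041, 2181, 1982 and 2101, were Coro1a with 1041, 2036, 1053 and 1431, Sh2d4a with 1041, 2346, 1208 and 1231, and Alcam with 1041, 2346, 790 and 1646. The Euclidean distance over the 6 percentile values was 0.449 for the first pair and between 3.99 and 4.52 for the Tead1 group.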

How the data were processed

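ChIP-seq for YAP or TEAD was performed on 19 mouse liver samples in 6 groups, taken from the sample labels. Per the study's methods and the file headers, the authors masked low-quality bases, aligned reads to mm9 with BWA 0.6.2, merged the replicates of each group, removed duplicates and called peaks with MACS 2.0.9 (p-value cutoff 1e-05, 51 bp tags) against a control of 167176362 tags from published data that served all 6 lists. As deposited, pileup is a signal that counts the extended fragments at a summit, and fold enrichment is its ratio to the local background. The deposited −log10 p-value of each peak came from the same caller and was used only for an alternative ranking and filter. Fragments were extended to 250 bp in all YAP lists and to 400, 207 and 206 bp in the TEAD lists of WT livers, 3 d and 7 d.

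Depth per list is the tag count in the header and is given in the report. With 1 list per group there is no spread between replicates, so no test was run. Peak ends were checked against chromosome lengths of the NCBIM37 assembly. Loci were gene bodies with 20 kb on either side in GENCODE for NCBIM37, and an overlap of 1 bp made peaks shared. Ranks are by pileup within a list. Pileups of 3 d and 7 d were divided by the tags of the library and compared by their ratio with an exact 95% counting interval. Shares have 95% Wilson intervals. The steps were tested on simulated data (Python 3.11.15, numpy 2.4.6, pandas 2.3.3, scipy 1.17.1).

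For each gene the peak of highest pileup and the peak nearest a start in each TEAD list, and every YAP peak, were to be named, as well as the 3 genes of most similar pattern for Tead1 and Tead4. The genes and lists were chosen with earlier results of these data known. Alternatives changed the window, the peaks kept, the overlap rule, the promoter, the ranking, the motif window and the scale of the ratio.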

Additional observations from a re-analysis of the deposited data

How the results depend on the processing

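Of 94 alternative values for 15 results, 87 stayed within 1.5 times the count, or within the interval of the share or median. A reversal was defined for the median ratio alone, and none was found. The YAP counts of 0 in WT livers and at 3 d stayed at 0. Of the settings used for them, only the window of 50 kb could have changed this. Limiting each TEAD list to the 5695 peaks of highest pileup gave 9 TEAD peaks at the loci at 3 d and 11 at 7 d. The same limit left 1 peak at 7 d that overlapped a 3 d peak and no WT peak, and 7 that overlapped a WT peak. With a fold enrichment of at least 5, 25 of the 38 TEAD peaks remained at 3 d and 37 of the 41 at 7 d. With summits at most 100 bp apart, 2 of the YAP peaks at 7 d had a TEAD partner. Division by the median pileup of shared peaks gave a median ratio of 1.19, against an interval of 1.27 to 1.80 for the value per tag. That interval was read from the ordered ratios of the 30 shared peaks. Peaks are not replicates, so it does not measure the spread between livers. These settings keep fewer peaks, ask for a stricter match or use another scale, and why each value moved was not tested. The count of each 3 d peak once in the ratios, a setting chosen after seeing the data, gave 1.61. No paired analysis was possible because each list pools its replicates and gives no replicate numbers, and for the same reason no replicate could be left out. The lowest pileups at the loci were 34, 22 and 21 in the WT, 3 d and 7 d lists, an order that did not follow the number of tags. The part of depth and of the fragment setting in which weak peaks were called was not tested.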
